A study of Mus musculus with 16 samples.

Results

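The genes described here are 10 nuclear receptors of the liver: Nr1i2 (PXR), Nr1i3 (CAR), Nr1h3 (LXRalpha), Nr1h4 (FXR), Nr0b2 (SHP), Nr5a2 (LRH-1), Ppara, Rxra, Hnf4a and Nr3c1 (the glucocorticoid receptor). They were taken by symbol, and their probes were found through the RefSeq accession that each probe carries. All 10 were on the array, with 17 probes in all, and all 10 were tested, among 15053 genes tested of 20659 named genes. The cells were primary hepatocytes of male C57Bl/J mice, kept in Williams Medium E, which were treated from 48 h after plating and lysed 48 h later. Cells received SQ1, a squalene synthase inhibitor, or Pravastatin, which inhibits HMG-CoA reductase, and the control was untreated cells. The series describes the cultures as biological replicates and does not give the number of animals. The labels give 100 µM for SQ1 and 30 µM for Pravastatin, and it is not certain that the unit given for SQ1 is right. Treated and control RNA were hybridised together on 16 2-colour Agilent arrays, with 8 arrays per drug. The dyes were swapped between replicates 1 to 4 and replicates 5 to 8 of each drug.

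Nuclear receptors are transcription factors that small lipophilic ligands switch on or off, and in the hepatocyte they tie gene expression to bile acids, sterols, fatty acids, drugs and glucocorticoids. PXR, CAR, LXRalpha, FXR and PPARalpha bind DNA as heterodimers with RXRalpha, whereas HNF4A and the glucocorticoid receptor bind as homodimers and LRH-1 as a monomer. SHP has no DNA-binding domain and represses other receptors, LRH-1 and HNF4A among them. Statins and squalene synthase inhibitors block cholesterol synthesis at different steps, upstream and downstream of farnesyl pyrophosphate.

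The promoters of 4 of these genes are shown as examples of windows that hold letters which factors of this group or of the liver recognise. By the brightest probes, the transcripts of all 10 genes were lower with Pravastatin, so that this did not select the 4. Each window runs from 250 bases before to 50 bases after a RefSeq transcription start (build GRCm38.p6), 5′ to 3′ on the strand of the gene. Capitals mark the receptor motif AGGTCA, the HNF1 core GTTAAT and the LRH-1-type core TCAAGG, on either strand. The windows are Nr1h4 at chr10:89506609-89506908 (minus strand), Nr0b2 at chr4:133553126-133553425 (plus strand), an upstream start of Nr5a2 at chr1:136960399-136960698 (minus strand) and a start of Hnf4a at chr2:163546905-163547204 (plus strand).
Nr1h4: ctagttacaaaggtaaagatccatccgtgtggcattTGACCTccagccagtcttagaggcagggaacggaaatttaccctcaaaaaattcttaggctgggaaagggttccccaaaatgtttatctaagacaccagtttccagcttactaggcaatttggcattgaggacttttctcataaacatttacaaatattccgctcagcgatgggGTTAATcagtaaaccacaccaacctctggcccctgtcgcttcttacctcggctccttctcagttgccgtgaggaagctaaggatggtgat
Nr0b2: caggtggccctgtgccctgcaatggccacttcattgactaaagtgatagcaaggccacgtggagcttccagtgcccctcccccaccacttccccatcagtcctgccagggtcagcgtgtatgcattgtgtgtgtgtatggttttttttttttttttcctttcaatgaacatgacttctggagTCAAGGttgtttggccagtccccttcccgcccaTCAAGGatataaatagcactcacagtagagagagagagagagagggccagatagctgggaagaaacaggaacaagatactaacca
Nr5a2: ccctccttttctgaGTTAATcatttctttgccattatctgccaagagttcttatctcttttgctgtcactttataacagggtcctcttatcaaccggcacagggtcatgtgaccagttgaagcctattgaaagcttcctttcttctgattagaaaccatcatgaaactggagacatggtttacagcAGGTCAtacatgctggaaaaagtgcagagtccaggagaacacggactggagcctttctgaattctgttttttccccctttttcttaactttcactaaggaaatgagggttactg
Hnf4a: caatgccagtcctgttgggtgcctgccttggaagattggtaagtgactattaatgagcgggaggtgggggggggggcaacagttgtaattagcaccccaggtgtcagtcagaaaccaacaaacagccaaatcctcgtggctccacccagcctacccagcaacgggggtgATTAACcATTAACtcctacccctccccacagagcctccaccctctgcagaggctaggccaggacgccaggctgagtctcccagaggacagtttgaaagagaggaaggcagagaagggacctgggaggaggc
In the Hnf4a window the HNF1 core stands at bases -81 to -76 and again at -74 to -69 from the start, both times on the opposite strand. In the Nr1h4 window it stands at -40 to -35 and in the Nr5a2 window at -236 to -231. The Nr0b2 window holds TCAAGG at -68 to -63 and at -35 to -30, a motif that was added to the search after the windows had been seen. RefSeq windows of 9 members were searched, 13 in all. GTTAAT was found in 3 of these 13 windows, against 7.13% of all 32544 windows of that length, AGGTCA in 3 of 13 against 16.2%, and TCAAGG in 1 of 13 against 14.4%. No window of a member held CAAAGTCCA (HNF4-type) or CAAGGTCA (the extended LRH-1-type site), which 0.479% and 1.53% of all windows hold. None held AGGTCA repeated 1 or 4 bases apart, or inverted 1 base apart. A window of Rxra, not shown, held AGGTCA at -87 to -82 and at -48 to -43. The sterol regulatory element core CACCCCAC was in 1 of 13 windows, that of Nr1i3, against 2.89%. CCAAT was in 4 of 13 against 37.4%, and CACGTG in 2 of 13 against 7.17%. A match is a run of letters and not a measured binding site.

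Measured by the brightest probe of each gene, all 10 receptor transcripts were lower with Pravastatin, whereas 2 were higher with SQ1, 1 was lower and 7 were not called. For Nr3c1 a second probe did not show the fall, so that 9 of 10 receptors had all their probes called lower with Pravastatin. A gene was called where the limma fit over all 16 arrays gave a Benjamini-Hochberg adjusted p under 0.05 over the 15053 genes. Every ± is the standard error (SE) of that fit for n = 8 arrays per drug. The ratios are treated over control on the log2 scale with the dye effect removed, so that a positive value means more transcript in treated cells. The p-values measure the spread between arrays taken as independent, and their precision is limited by how many arrays there are. The sample titles do not say whether replicates of swapped dyes, such as 1 and 5, share a culture. If they do, there are fewer independent cultures than arrays, and no fit took such pairs as a block. With SQ1, the Ppara ratio was -0.45 on replicates 1 and 5, and 1.18 and 0.92 on 4 and 8. The Nr1i3 ratio was 1.04 and 0.27 on 4 and 8.

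With Pravastatin, 10 of 10 receptors fell, where 35.8% of all genes tested were called lower and 30.9% higher (66.7% called in either direction). The higher calls were 46.3% of the called genes, or 56.8% with the Agilent processed signals and 61% with median centring, under both of which 10 of 10 receptors were still lower. The median log2 fold change was -1.10 over the 10 receptors and -0.01 over all genes. With SQ1, Nr1i2 and Rxra rose and Nr3c1 fell, 3 of 10, where 32.3% of all genes were called (15.7% higher and 16.5% lower). With the slide as a random block, 1 of the 10 (Rxra) was called with SQ1. With the scan day as a random block limma called 0 (2 at an unadjusted p under 0.05). All 8 SQ1 arrays were scanned on the same day, so that the scan day block compares no SQ1 arrays of different days. The share called among the receptors with SQ1 is near that of all genes. The median over the 10 receptors was 0.03 with SQ1, against -0.002 over all genes.

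Beside these values stand those of the cell type markers. The cells carried the hepatocyte markers that their label calls for: 10 of 10 (among them Alb, Ttr and Apoa1) were well above background in every channel. Their summed linear intensity ran from 1102651 to 1718905 in SQ1-treated cells, against 1269033 to 1941857 in the controls on those arrays. The SQ1 and control ranges overlap. The sum ran from 611447 to 1200416 in Pravastatin-treated cells, against 1748510 to 2102026 in the controls, with no overlap. Pravastatin-treated cells thus carried less hepatocyte marker signal on every array. All 10 hepatocyte markers fell with Pravastatin (median -1.34), and 4 of 10 fell with SQ1 (median -0.20). Tdo2 (-3.15 ± 0.24) and Cps1 (-2.73 ± 0.17) had the largest falls among them. In bulk RNA, fewer hepatocytes and less of these RNAs per hepatocyte cannot be told apart.

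The markers of other liver cells were present as well. Of 9 tested Kupffer cell and leukocyte markers, 7 fell and 1 rose with Pravastatin (Vsig4 -1.08 ± 0.08, C1qa -0.86 ± 0.06, Cd14 0.92 ± 0.11), and 5 fell with SQ1. Their summed intensity was 15160 to 24534 with SQ1 against 17300 to 29804 in controls, and 15014 to 26101 with Pravastatin against 16531 to 29742. Vsig4 and C1qa mark resident macrophages and Cd14 is the endotoxin co-receptor. Of 10 stellate cell and fibroblast markers, 3 fell with Pravastatin, and with SQ1 Lrat rose (0.95 ± 0.10) and Reln fell (-0.11 ± 0.04). Their sums were 68083 to 103928 with SQ1 against 72611 to 115358 in controls, and 75505 to 107122 with Pravastatin against 79188 to 120976. Lrat esterifies retinol in stellate cells. Of 8 endothelial markers, 3 rose and 4 fell with Pravastatin and 4 rose with SQ1, with sums of 12938 to 15712 with SQ1 against 10945 to 14984, and of 9138 to 13943 with Pravastatin against 10967 to 15213. Of 6 cholangiocyte markers, 1 rose and 3 fell with Pravastatin and 3 fell with SQ1, with sums of 112472 to 231299 with SQ1 against 155164 to 317390, and of 206494 to 263155 with Pravastatin against 145472 to 357395. The sums of these 4 lists overlapped between treated and control channels for both drugs. No marker of any list was below background in all channels of a group. The part of these cell populations in the receptor values was not tested.

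**Figure D1:**
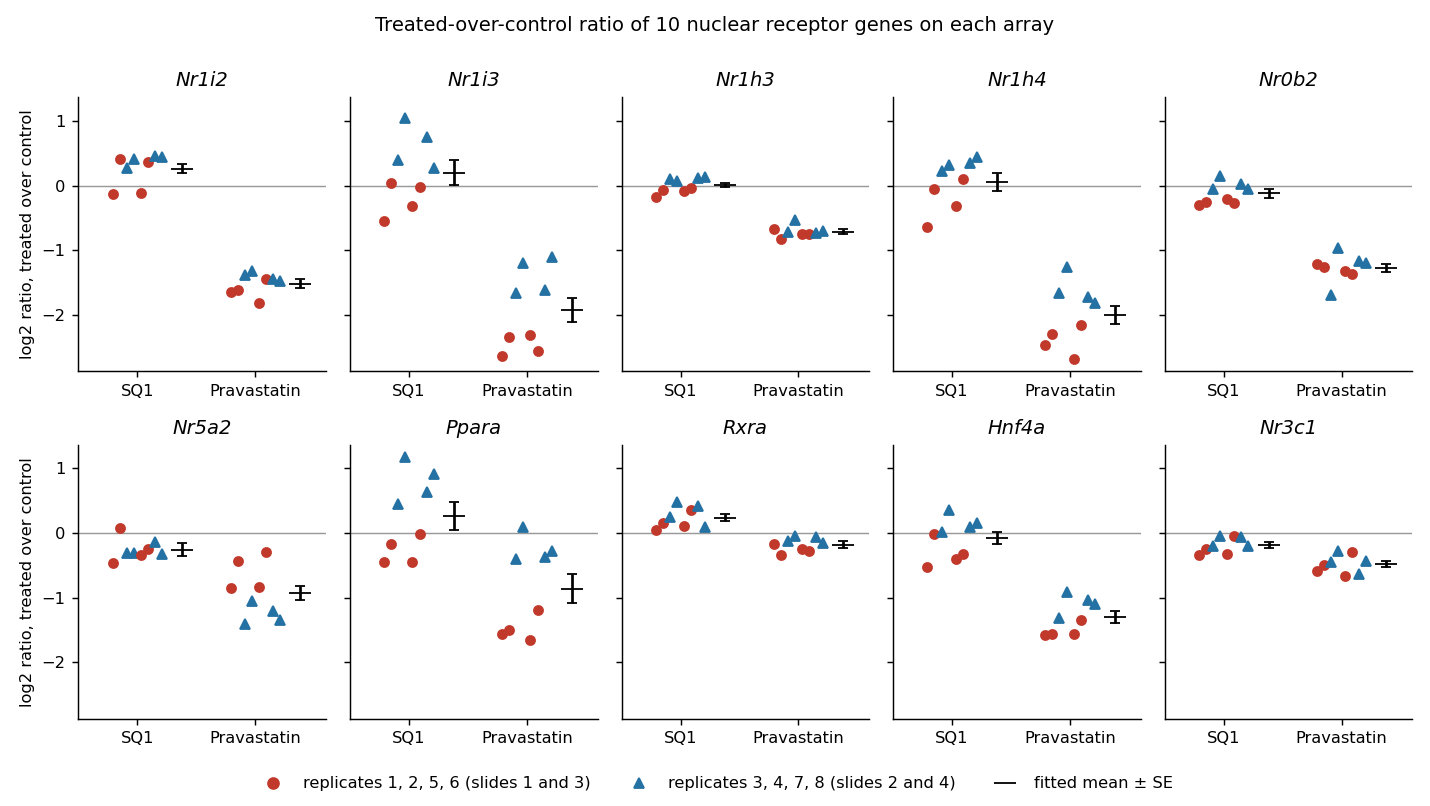
Treated-over-control log2 ratio of each receptor gene on each of the 8 SQ1 arrays (left) and 8 Pravastatin arrays (right) of a panel, with the fitted mean ± SE. Every Pravastatin ratio is below 0 except 1 for Ppara, whereas the SQ1 ratios lie on both sides of 0 for 8 of the 10 genes.

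The xenobiotic receptors were among those with the larger falls. Nr1i2 encodes PXR, which drugs, bile acids and steroids activate. Its ratio ran from -0.14 over a median of 0.39 to 0.47 with SQ1. With Pravastatin it ran from -1.82 over a median of -1.46 to -1.32. With SQ1, 6 arrays were above 0 and 2 below (replicates 1 and 5), and all 8 Pravastatin arrays were below every SQ1 array. The share of all genes with such a separation of the drugs was not counted (53.1% were called between the drugs). SQ1 thus raised Nr1i2 1.20-fold (0.26 ± 0.07, adjusted p = 0.00902), and Pravastatin lowered it 2.86-fold (-1.52 ± 0.07, adjusted p = 2.33e-11). The SQ1 call was lost with the slide as a random block (adjusted p = 0.0723), with the scan day as a block (adjusted p = 0.25) and within slide 1 (0.13, adjusted p = 0.236). Within slide 2 it was 0.40 (adjusted p = 0.00217).

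Nr1i3 encodes CAR, which phenobarbital-like inducers activate. Its ratio ran from -0.56 over a median of 0.16 to 1.04 with SQ1, and from -2.63 over a median of -1.99 to -1.11 with Pravastatin. The SQ1 arrays lay on both sides of 0, 5 above and 3 below, and no Pravastatin array reached 0. SQ1 gave no call (0.20 ± 0.19, 95% interval -0.20 to 0.60, adjusted p = 0.448). Pravastatin lowered Nr1i3 3.81-fold (-1.93 ± 0.19, adjusted p = 1.28e-07). Its level with Pravastatin was low, at a log2 intensity of 6.42 to 7.28 against 7.46 to 9.60 in the controls on those arrays. With the Agilent processed signals, to which no offset is added, the change was larger, at -3.39 on the log2 scale.

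The sterol and bile acid receptors come next. Nr1h3 encodes LXRalpha, an oxysterol sensor that drives sterol efflux and lipogenesis. Across arrays the ratio ran from -0.17 over 0.01 to 0.14 with SQ1 and from -0.83 over -0.73 to -0.53 with Pravastatin. The SQ1 values lay close to 0, on 4 arrays above it and on 4 below, and all Pravastatin arrays were lower. SQ1 gave a 95% interval of -0.07 to 0.09 around 0.01 ± 0.04 (adjusted p = 0.888). Pravastatin lowered it 1.64-fold (-0.71 ± 0.04, adjusted p = 9.08e-11). Its relative Nr1h2 (LXRbeta) changed little: -0.08 ± 0.03 with SQ1 (adjusted p = 0.0303) and 0.11 ± 0.03 with Pravastatin (adjusted p = 0.00304).

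Nr1h4 encodes FXR, the bile acid receptor, and its Pravastatin change was of a size with that of Nr1i3. Which of them was larger depended on the processing (with the Agilent processed signals -1.97 for Nr1h4 and -3.39 for Nr1i3). The Nr1h4 ratio ran from -0.64 over 0.16 to 0.44 with SQ1 and from -2.68 over -1.99 to -1.26 with Pravastatin. All 8 Pravastatin arrays lay below the lowest SQ1 array, a separation whose share over all genes was not counted. The fall with Pravastatin was 4.01-fold (-2.00 ± 0.14, 95% interval -2.30 to -1.71, adjusted p = 2.71e-09). SQ1 gave no call (0.06 ± 0.14, adjusted p = 0.80).

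Nr0b2 encodes SHP, which FXR induces and which represses bile acid synthesis. The Nr0b2 ratio ran from -0.30 over -0.14 to 0.15 with SQ1 and from -1.69 over -1.23 to -0.97 with Pravastatin. With SQ1, 6 arrays were below 0 and 2 above, and with Pravastatin all 8 were below. Pravastatin lowered it 2.42-fold (-1.27 ± 0.06, adjusted p = 5.02e-11), and the SQ1 value of -0.12 ± 0.06 missed the threshold (adjusted p = 0.157).

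Nr5a2 encodes LRH-1, an activator of bile acid and cholesterol genes. Ratios for Nr5a2 ran from -0.46 over -0.31 to 0.09 with SQ1 and from -1.40 over -0.95 to -0.29 with Pravastatin. The ranges of the drugs overlapped, since Pravastatin replicate 6 lay above the lowest SQ1 array. Pravastatin lowered it 1.90-fold (-0.93 ± 0.10, adjusted p = 6.75e-07). SQ1 gave -0.26 ± 0.10, which missed the threshold (adjusted p = 0.0712), although array weights (adjusted p = 0.0397), slide 2 by itself (0.0459), leaving out SQ1 replicate 2 (0.046) or leaving out Pravastatin replicate 6 (0.0328) brought it under. It was farther from a call with the slide as a block (adjusted p = 0.202), with the scan day as a block (-0.08, adjusted p = 0.777) and on the second probe (-0.04 ± 0.07, adjusted p = 0.731).

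Ppara encodes the fatty acid sensor that drives oxidation and ketogenesis in fasting. The Ppara ratio ran from -0.45 over 0.21 to 1.18 with SQ1 and from -1.65 over -0.80 to 0.09 with Pravastatin. These were the widest ranges of the 10 genes together with those of Nr1i3. Pravastatin replicate 4 was the only Pravastatin array of any receptor above 0. The fall with Pravastatin was 1.81-fold (-0.86 ± 0.22, adjusted p = 0.00229), and was not called within slide 4 (-0.24, adjusted p = 0.0817). SQ1 gave no call, and its interval was wide (0.26 ± 0.22, 95% interval -0.20 to 0.72, adjusted p = 0.393). Its relatives went another way or less far: Ppard rose with both drugs (0.27 ± 0.03 with SQ1 and 1.07 ± 0.03 with Pravastatin, adjusted p = 1.06e-13), and Pparg fell with both (-0.20 ± 0.06 and -0.44 ± 0.06).

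Rxra encodes the partner that most of these receptors need to bind DNA, and had the smallest Pravastatin change among the brightest probes. For Rxra the ratio ran from 0.05 over 0.20 to 0.48 with SQ1 and from -0.34 over -0.17 to -0.04 with Pravastatin. All 8 SQ1 arrays were above 0 and all 8 Pravastatin arrays below. The same held for Rxra with the dye effect left in. Counted with the dye effect left in, a called change had the same sign on 8 of 8 arrays for 17.7% of all genes with SQ1. With Pravastatin the share was 43.3%. SQ1 raised Rxra 1.18-fold (0.24 ± 0.05, adjusted p = 0.00119, but 0.0927 with the scan day as a block). Pravastatin lowered it 1.13-fold (-0.18 ± 0.05, adjusted p = 0.00391), a change that was not called within slide 4 (-0.10, adjusted p = 0.181). Of its relatives, Rxrb rose by 0.14 ± 0.04 and Rxrg fell with Pravastatin (-0.34 ± 0.06), and neither was called with SQ1 (-0.01 ± 0.04 for Rxrb and -0.11 ± 0.06 for Rxrg).

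Hnf4a encodes an orphan receptor that sustains the gene programme of the differentiated hepatocyte. The Hnf4a ratio ran from -0.52 over 0.00 to 0.37 with SQ1 and from -1.57 over -1.33 to -0.91 with Pravastatin. With SQ1, 4 arrays lay on each side of 0. Pravastatin lowered it 2.46-fold (-1.30 ± 0.09, adjusted p = 4.3e-09), and SQ1 gave no call (-0.08 ± 0.10, 95% interval -0.28 to 0.12, adjusted p = 0.577). Its probe was bright in every channel, at a log2 intensity of 15.08 to 15.74 with Pravastatin against 16.45 to 17.10 in controls, and no channel was saturated.

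Nr3c1 encodes the glucocorticoid receptor, which induces gluconeogenic and amino acid catabolic genes. Ratios for Nr3c1 ran from -0.33 over -0.20 to -0.05 with SQ1 and from -0.67 over -0.47 to -0.28 with Pravastatin. Every array of both drugs was below 0. With the dye effect left in, 6 of 8 SQ1 arrays and 8 of 8 Pravastatin arrays were. SQ1 lowered it 1.13-fold (-0.18 ± 0.05, adjusted p = 0.00669) and Pravastatin 1.39-fold (-0.48 ± 0.05, adjusted p = 1.31e-07). The SQ1 call was lost with median centring (-0.06, adjusted p = 0.712), with the slide (0.0861) or the scan day (0.0892) as a block and within slide 2 (-0.13, adjusted p = 0.159). The mineralocorticoid receptor Nr3c2 was not called with either drug (0.03 ± 0.04 with SQ1 and -0.02 ± 0.04 with Pravastatin).

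Ordered by the fall with Pravastatin, Nr1h4 (95% interval -2.30 to -1.71) and Nr1i3 (-2.33 to -1.53) came first, followed by Nr1i2 (-1.67 to -1.37), Hnf4a (-1.50 to -1.10) and Nr0b2 (-1.41 to -1.14). Nr5a2 (-1.15 to -0.71), Ppara (-1.32 to -0.40) and Nr1h3 (-0.79 to -0.63) came next, then Nr3c1 (-0.58 to -0.38) and Rxra (-0.28 to -0.08). Neighbours in this order, which is that of the brightest probes, had overlapping intervals, so that their ranks are not separate. Exceptions were those between Nr1h3 and Nr3c1 and between Nr3c1 and Rxra. On the second probes Nr3c1 and Rxra stood in the reverse order (0.10 ± 0.05 and -0.36 ± 0.05), so that their ranks depend on the probe. The wide interval of Ppara also overlapped those of Hnf4a, Nr0b2 and Nr3c1. These are orders of fold changes, not of levels, since intensities of different probes are not comparable.

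By the brightest probes, SQ1 and Pravastatin differed for all 10 receptors, with the higher value in SQ1-treated cells each time (29.3% of all genes were called higher, 23.8% lower and 53.1% in either direction). The median difference was 1.13 over the 10 genes and 0.01 over all genes. The difference was 4.38-fold for Nr1i3 (2.13 ± 0.27), 4.17-fold for Nr1h4 (2.06 ± 0.20) and 3.44-fold for Nr1i2 (1.78 ± 0.10). It was 1.34-fold for Rxra (0.42 ± 0.07) and 1.23-fold for Nr3c1 (0.30 ± 0.07, adjusted p = 0.00128). The Nr3c1 difference was no longer called with median centring (0.27, adjusted p = 0.193) and was not seen on the second Nr3c1 probe (-0.02 ± 0.06, adjusted p = 0.83). The doses differ and the arrays of the drugs lay on different slides, so that drug and slide cannot be told apart in this contrast.

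The arrays of the drugs that share a replicate number also share much of their spread. Control channels of the same number deviated together over all genes (r = 0.654 to 0.855), more than with any other number of the same dye (0.295 to 0.488). The labels do not say whether the same control culture was used for both drugs. With the replicate number as a fixed block, all 10 differences stayed called, and the SQ1-over-Pravastatin difference was above 0 on 8 of 8 numbers for each gene. For Ppara it ran from 0.84 over 1.14 to 1.33, and its SE was 0.048 with the block against 0.308 without. For Nr1i3 the SE was 0.10 with the block against 0.266. Nr5a2 had the widest spread of differences for its size, from 0.03 upward over a median of 0.63 (SD 0.38). The block called 9412 genes in all, against 7996 without it.

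**Figure D2:**
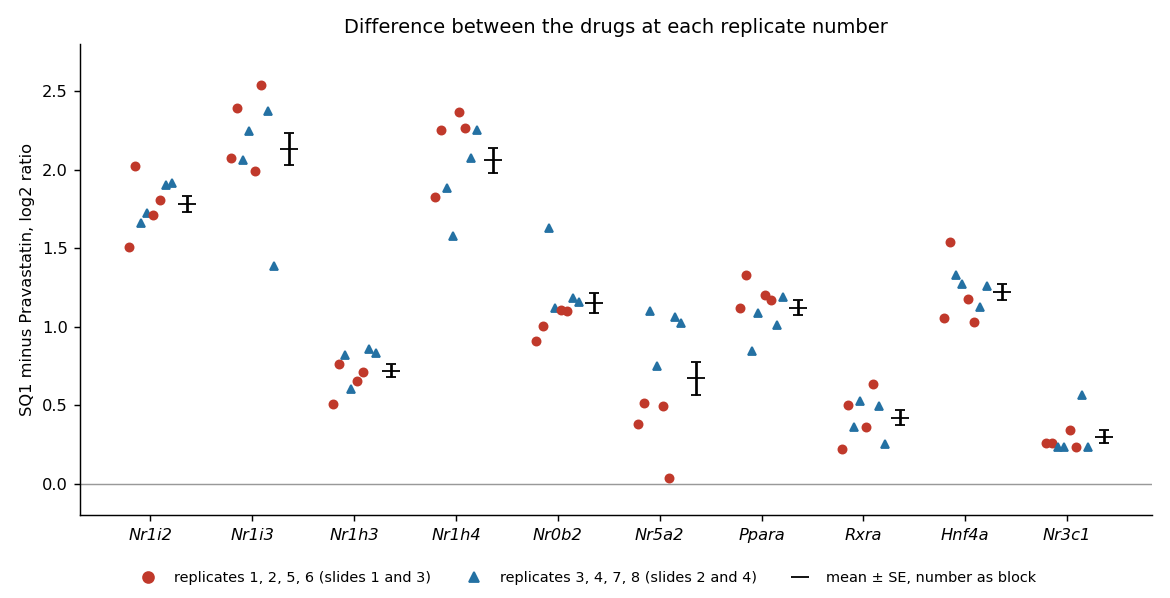
Log2 ratio with SQ1 minus log2 ratio with Pravastatin at each of the 8 replicate numbers, for each receptor gene, with the mean ± SE of the fit that has the number as a block. All differences are above 0, and those of Ppara lie between 0.84 and 1.33.

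Much of the spread of some receptors between arrays went with the slide. Slide 1 held SQ1 replicates 1, 2, 5 and 6 and slide 2 the other SQ1 replicates, and slides 3 and 4 held the Pravastatin arrays of the same numbers. Ppara was at -0.28 on slide 1 and 0.80 on slide 2 with SQ1, and at -1.48 on slide 3 and -0.24 on slide 4 with Pravastatin. The difference between the slides of a drug, slide 1 minus 2 and slide 3 minus 4, was -1.07 ± 0.16 (adjusted p = 0.00139) and -1.24 ± 0.16 (adjusted p = 1.5e-04). The ratio was thus lower on the slide of replicates 1, 2, 5 and 6 with both drugs. Nr1i3 was at -0.21 and 0.62 on slides 1 and 2 and at -2.46 and -1.40 on slides 3 and 4. Nr1h4 was at -0.22 and 0.34, and at -2.40 and -1.61, in the same order. Hnf4a was at -0.31 and 0.16, and at -1.51 and -1.09. All 3 were lower on the slide of replicates 1, 2, 5 and 6 with both drugs, as Ppara was. Nr5a2 went the other way with Pravastatin, at -0.60 on slide 3 and -1.25 on slide 4, and differed little between the SQ1 slides (-0.24 and -0.27). Differences between slides were called for 5 of 10 receptors with SQ1, against 12.3% of all genes, and for 5 of 10 with Pravastatin, against 21.8%. With SQ1, 4 receptors were called within slide 1, 1 higher and 3 lower (34.8% of all genes, 44% of these higher). Within slide 2, 7 were called, 6 higher and 1 lower (27%, 52% of these higher). Ppara (adjusted p = 1.03e-04), Nr1i3 (0.00185), Nr1h4 (0.0296) and Nr1h3 (0.11, adjusted p = 0.046) were called higher within slide 2 and not within slide 1. Hnf4a (adjusted p = 0.00487) and Nr0b2 (-0.26, adjusted p = 0.0165) were called lower within slide 1 and not within slide 2. With Pravastatin, 10 were called within slide 3 (64.3%) and 8 within slide 4 (57.5%). Since the slide sets hold the same replicate numbers for both drugs, the slide and the set of cultures cannot be told apart.

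SQ1 replicate 1 was the lowest SQ1 array for all 10 receptors (for Ppara level with replicate 5, both at -0.453), and for 21.3% of all genes. Replicate 4 was the highest SQ1 array for 6 receptors (17.4% of all genes), and Pravastatin replicate 4 the highest Pravastatin array for 8 (23.4%). Without SQ1 replicate 1, 3 receptors were called with SQ1, as with all arrays.

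The treated and the control channels were also looked at by themselves, an analysis added after the data had been seen. On the brightest Ppara probe the level was narrow in SQ1-treated cells, at a log2 intensity of 11.44 to 11.63. It was wide in the controls on the same arrays, at 10.42 to 12.05. It was 10.18 to 10.79 in Pravastatin-treated cells, against 10.64 to 12.04 in controls. The 4 controls of the first set (replicates 1, 2, 5 and 6) were all above the 4 of the second set on the arrays of both drugs. Averaged over the arrays of a number, controls of the first set were higher than those of the second by 0.94 ± 0.16 for Ppara (adjusted p = 0.00365). In SQ1-treated cells the same difference was -0.05 ± 0.05 (adjusted p = 0.434), and in Pravastatin-treated cells -0.37 ± 0.06 (adjusted p = 0.003).

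Nr1i3 had the largest control difference between the sets, 1.30 ± 0.16 (adjusted p = 0.00127), and Nr0b2 (0.39 ± 0.04), Nr1h4 (0.38 ± 0.13) and Nr1h3 (0.20 ± 0.05) were called as well. Nr5a2 was lower in the first set in controls (-0.44 ± 0.13) and in SQ1-treated cells (-0.44 ± 0.07), and higher in Pravastatin-treated cells (0.24 ± 0.08). In all, 6 of 10 receptors were called between the control sets, against 36.7% of all genes. In SQ1-treated cells Nr5a2 was the 1 receptor called (26.8% of all genes), and in Pravastatin-treated cells Nr1h4, Nr5a2, Ppara and Hnf4a were (31.2%). Single-channel levels were compared between slides here, so that slide and set cannot be told apart in them.

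**Figure D3:**
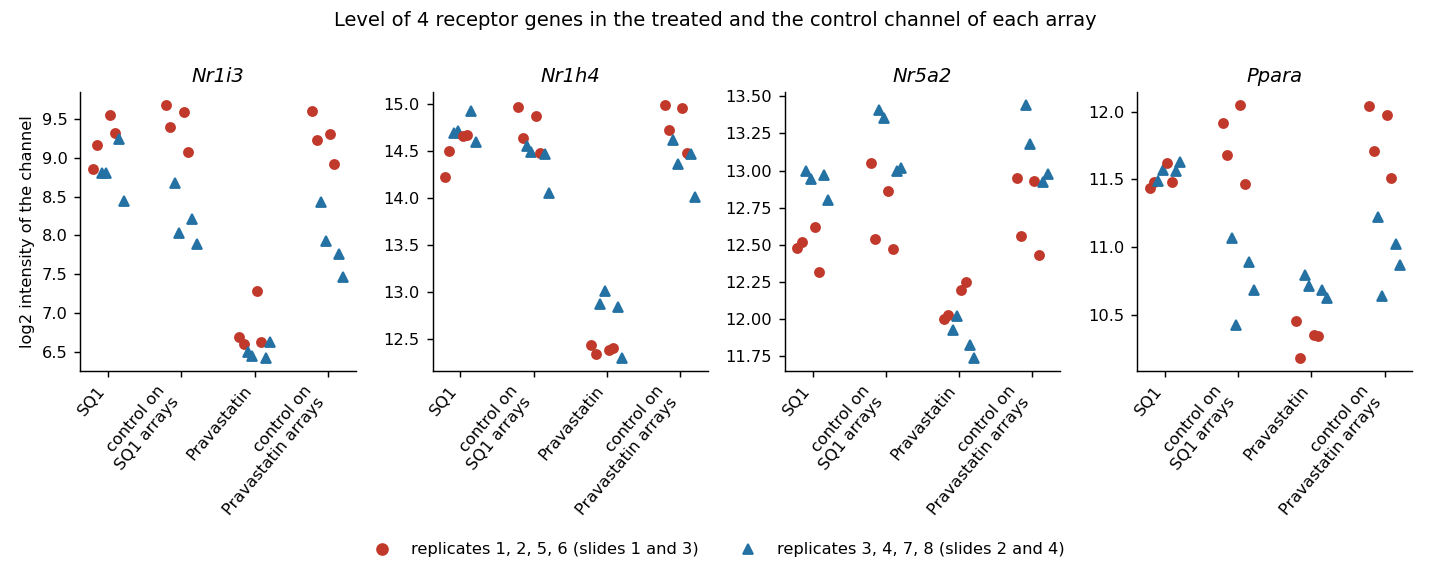
Log2 intensity of 4 receptor genes in the treated and the control channel of each array, SQ1 and then Pravastatin, with symbols for the 2 sets of replicate numbers. For Ppara, by its brightest probe, the SQ1-treated cells lie between 11.44 and 11.63, inside the range of 10.42 to 12.05 of their controls. These controls fall apart by set.

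Genes with more than 1 probe allow the values to be read again on other probes, and 6 of the 10 genes have them. Each gene is represented above by its brightest probe. The other probes of Nr1i3 (0.18 with SQ1 and -1.45 with Pravastatin) and Nr1h3 (0.04 and -0.62) gave the same picture as the first. The other Nr5a2 probe fell less with Pravastatin, by 0.45 on the log2 scale. The second Rxra probe gave 0.01 ± 0.05 with SQ1 (adjusted p = 0.87) where the first was called higher, and -0.36 ± 0.05 with Pravastatin. Tested each by itself, 29% of 25826 probes were called with SQ1, 63.8% with Pravastatin and 48.7% between the drugs. With SQ1, Nr1i2, which has 1 probe, was the 1 receptor with all its probes called.

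The Ppara probes differed in their spread. The other 2 probes fell with Pravastatin by 1.26 and by 0.68 on the log2 scale, and neither was called with SQ1 (-0.03 ± 0.11 and 0.17 ± 0.09). The second probe was near the same value on all slides of a drug (-0.09 and 0.02 with SQ1, -1.17 and -1.36 with Pravastatin). The third probe went with the first on the SQ1 slides, at -0.09 on slide 1 and 0.42 on slide 2 (difference -0.51, adjusted p = 0.00876), and its Pravastatin slides were not called apart (-0.79 and -0.58). For the second probe the control sets differed by -0.32 ± 0.19 (adjusted p = 0.227), where those of the first probe differed by 0.94 (32.7% of all probes were called). On the third probe the control sets differed by 0.16 ± 0.11 (adjusted p = 0.286). In SQ1-treated cells the third probe was called between the sets (-0.31 ± 0.05, adjusted p = 0.0044, 24.4% of all probes called). The second probe ran from 9.99 to 11.15 in SQ1-treated cells (set difference -0.40 ± 0.21, adjusted p = 0.199). The narrow level of SQ1-treated cells beside set-dependent controls was thus seen on the brightest probe and not on the others.

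The Nr3c1 probes disagreed in direction with both drugs. The second probe gave 0.08 ± 0.05 with SQ1 (adjusted p = 0.209) and 0.10 ± 0.05 with Pravastatin (adjusted p = 0.0684), and no difference between the drugs was called. The fall of Nr3c1 rests on its brightest probe, and the change of the gene as a whole is uncertain.

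**Figure D4:**
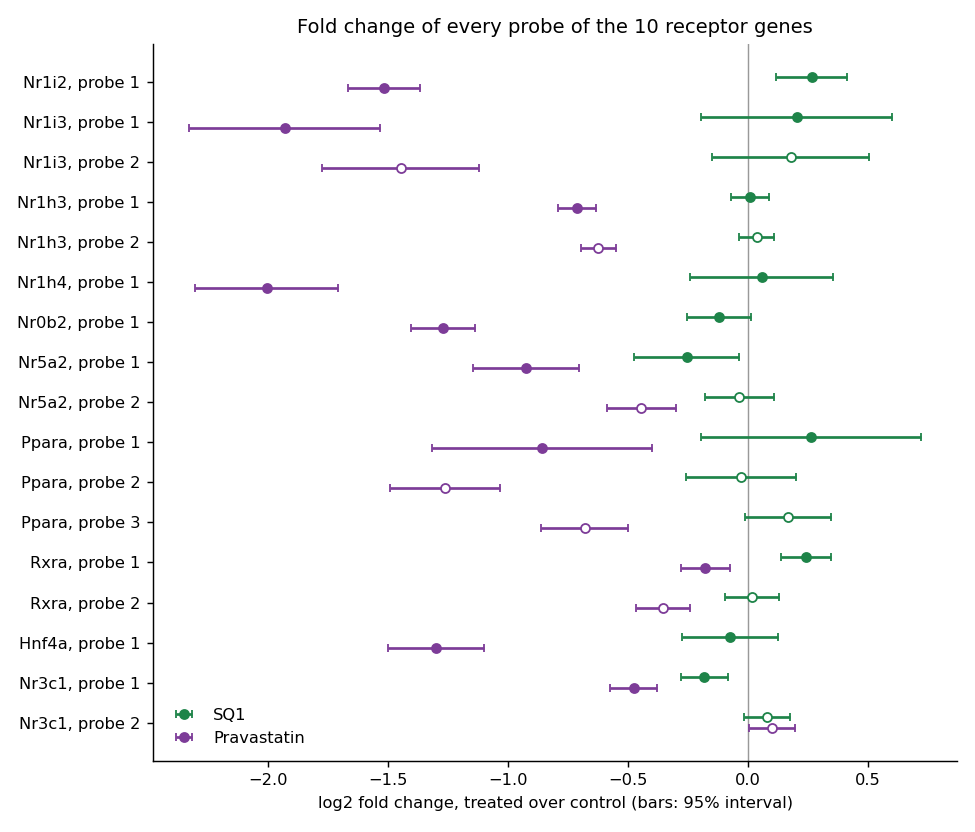
Log2 fold change of each of the 17 probes of the receptor genes with SQ1 (upper point) and Pravastatin (lower point), with 95% intervals; filled points are the brightest probe of each gene. All probes lie below 0 with Pravastatin except the second of Nr3c1 at 0.10.

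The rest of the nuclear receptor family did not share the one-sided fall. Of 30 other receptors tested (39 on the array), 11 rose and 13 fell with Pravastatin and 6 were not called, with a median of -0.03. With SQ1, 6 rose and 4 fell. Among the larger changes with Pravastatin, same in sign on all 8 arrays, were those of Ppard (1.07 ± 0.03) and Nr4a2, an immediate early orphan receptor (0.79 ± 0.05). With SQ1 the largest were those of Ppard (0.27 ± 0.03), Esrrg (0.25 ± 0.05) and Thra, a thyroid hormone receptor (-0.23 ± 0.06). Hnf4g and Vdr were on the array and were not bright enough to be tested. Whether the 10 receptors differ from the others as a group was not tested.

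Coregulators moved in both directions. Of 19, 5 rose and 6 fell with Pravastatin, among them Ppargc1b (-0.60 ± 0.06) and the coactivator Ncoa1 (-0.42 ± 0.08), and 2 rose and 2 fell with SQ1, among them Tbl1xr1 (0.25 ± 0.05) and Med1 (-0.19 ± 0.03). Tbl1xr1 fell with Pravastatin (-0.34 ± 0.05). Of 13 other liver-enriched transcription factors, 8 fell and 2 rose with Pravastatin. Creb3l3, a fasting-responsive factor of the endoplasmic reticulum (-1.58 ± 0.10), Mlxipl, the carbohydrate-responsive factor ChREBP (-1.44 ± 0.12), and Foxa3 (-1.14 ± 0.06) fell most. With SQ1, 3 rose (among them Creb3l3 at 0.60 ± 0.10 and Foxa1 at 0.24 ± 0.03) and 1 fell (Foxa3 at -0.19 ± 0.06).

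The genes known to respond to these receptors were counted from lists, which were drawn up with earlier results of these data known. Of 19 tested PXR and CAR targets of drug metabolism, 12 fell and 3 rose with Pravastatin (median -0.44), whereas 10 rose and 2 fell with SQ1 (median 0.41). Cyp3a11 (-4.58 ± 0.25) and Cyp3a25 (-3.97 ± 0.28), the PXR-responsive cytochromes P450, had the largest falls with Pravastatin. Cyp2b9 (1.73 ± 0.14), Cyp2b10 (1.32 ± 0.12) and Cyp2c55 (0.99 ± 0.10) rose most with SQ1, while their receptors Nr1i2 and Nr1i3 were at 0.26 and 0.20.

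Of 22 PPARalpha targets, 19 fell and 1 rose with Pravastatin (median -0.86), and 16 rose and 3 fell with SQ1 (median 0.46). The liver fatty acid binding protein Fabp1 (-3.53 ± 0.25) and the fasting hormone Fgf21 (-2.32 ± 0.20) fell with Pravastatin. The acyl-CoA thioesterase Acot1 (2.64 ± 0.08) and the fatty acid omega-hydroxylases Cyp4a14 (1.96 ± 0.16) and Cyp4a31 (1.53 ± 0.10) rose with SQ1, where Ppara itself was not called. All 22 were higher with SQ1 than with Pravastatin.

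Of 12 tested targets of FXR, SHP and LRH-1 in bile acid handling, all 12 fell with Pravastatin (median -1.29), and 6 fell and 1 rose with SQ1 (median -0.19). The uptake transporter Slco1b2 (-4.20 ± 0.27), the bile acid conjugating enzyme Baat (-3.66 ± 0.15) and the bile salt export pump Abcb11 (-2.85 ± 0.15) fell most with Pravastatin. With SQ1, Slco1b2 (-1.23 ± 0.27) and the FGF receptor partner Klb (-0.35 ± 0.09) fell and the bile acid efflux subunit Slc51b rose (0.38 ± 0.06). Of 13 tested LXR targets, 10 fell and 1 rose with Pravastatin, and 6 fell and 2 rose with SQ1. The sterol transporters Abcg5 (-2.05 ± 0.17) and Abca1 (-1.78 ± 0.07) and the desaturase Scd1 (-1.95 ± 0.14) fell with Pravastatin. Abca1 (-0.57 ± 0.07), Scd1 (-0.59 ± 0.14) and lipoprotein lipase Lpl (-0.71 ± 0.07) fell with SQ1, where Nr1h3 was at 0.01.

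Of 21 tested HNF4A targets, 20 fell and 0 rose with Pravastatin (median -1.23), and 9 fell and 1 rose with SQ1 (median -0.21). The glucose transporter Slc2a2 (-4.55 ± 0.17), the urea cycle enzyme Otc (-3.25 ± 0.24) and Pck1 of gluconeogenesis (-3.10 ± 0.16) fell most with Pravastatin. Slc2a2 (-0.81 ± 0.17), Apoa2 (-0.73 ± 0.13) and Apoa4 (-0.55 ± 0.07) fell with SQ1. Of 17 glucocorticoid receptor targets, 8 fell and 4 rose with Pravastatin, and 2 fell and 7 rose with SQ1. Tdo2 (-3.15 ± 0.24), Pck1 and G6pc (-2.27 ± 0.21) fell most with Pravastatin, and Lpin1 (0.79 ± 0.06) and Zbtb16 (0.53 ± 0.12) rose with SQ1. Tdo2 is also a hepatocyte marker and Pck1 also stands among the HNF4A targets, so that the lists are not separate evidence.

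**Figure D5:**
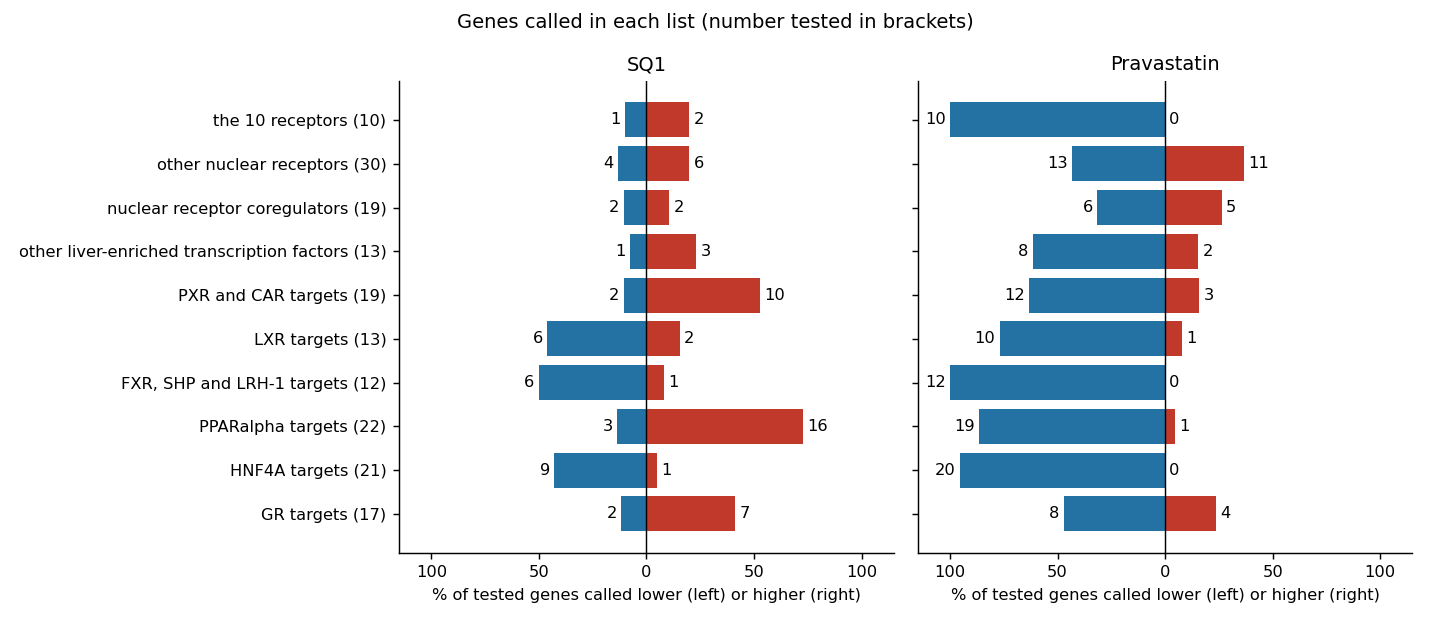
Share of the tested genes of each list called lower (left of 0) or higher (right of 0) with SQ1 (left panel) and Pravastatin (right panel), with the counts at the bar ends. The 10 receptors are 0 higher and 10 lower with Pravastatin, against 11 and 13 of 30 other nuclear receptors.

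Genes whose ratios were most like those of a receptor over the 16 arrays were found by Pearson's r, as a description. These arrays share the contrast between the drugs, so that a high r is in part the difference between the drugs. For Nr1h4, 904 of the other genes had an r over 0.95, the nearest being Tmprss6, F13b (0.997 each) and Ttpa (0.996). For Nr1i2, 632 did, led by St3gal5 and Fmo5 (0.997 each), and for Nr1i3, 727, led by Acadvl (0.992) and Cebpe (0.991). Hnf4a had 790 (Ugt2b36 at 0.992 first), Nr1h3 606 (Baat and Rdh7 at 0.992), Nr0b2 327 (Iftap at 0.983) and Ppara 168 (Auh at 0.988). Rxra had 17 (Ndufa3 and Rnf186 at 0.964), Nr5a2 had 2 (Rdx at 0.967 and Prox1 at 0.954), and Nr3c1 had 0, its nearest being Klhl25 at 0.938.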

How the data were processed

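The members and gene lists were chosen with earlier results of these data known. The deposited scanner files hold the median intensity of each spot and its background in both channels, left unnormalized by the authors. Agilent Feature Extraction 11.0.1.1 also gave processed signals in intensity units and a log10 ratio, per the file headers. The series table that was deposited is on the log2 scale, and on each array it was checked to correlate with the Agilent log ratio of treated over control (r = 0.742 to 0.999).

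Median intensities were used because the files hold no mean signal, which had been planned. They were processed in R 4.3.3 with limma 3.58.1: normexp with an offset of 50, loess within each array, and spots of a probe averaged. Tests took probes well above background in 4 or more treated channels of a drug or in 8 or more control channels, with 7 or more ratios per drug. A gene was represented by its brightest probe. A gene's ratio was fitted over 16 arrays with a coefficient per drug and a dye term (13 residual degrees of freedom), and p-values were two-sided. Single-channel levels were taken after loess and Aquantile.

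Same-numbered arrays of the drugs deviated together (r = 0.22 to 0.718 across genes), so the replicate numbers were taken to pair them, although 5 of 8 SQ1 arrays correlated more with a Pravastatin array of another number (up to 0.762). Alternatives were other background corrections, normalizations, filters, blocks by slide, scan day or replicate number, array weights, other thresholds, every probe by itself, and each array left out. The fit was tested on simulated data. Named genes were the members, 8 relatives and the nearest genes by r. Up to 3 called genes per list and drug were also named, if of the same sign on 8 of 8 arrays with the dye effect left in. Reln is named in addition, because it was the 1 stellate marker that fell with SQ1, after its value was seen. The list symbol G6pc1 was read as G6pc. Promoters were from RefSeq (GRCm38.p6). The sequence of Nr3c1 is not shown here. Some genes that the rule names are not reported here.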

Additional observations from a re-analysis of the deposited data

Results flagged for a closer look

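These 10 results were picked out because the effect of a drug differed between the slides of that drug, by a limma contrast between slide coefficients. With SQ1, the slide 1 minus slide 2 difference in log2 ratio was -1.07 for Ppara, -0.831 for Nr1i3, -0.559 for Nr1h4, -0.473 for Hnf4a and -0.201 for Nr1h3. With Pravastatin, the slide 3 minus slide 4 difference was -1.242 for Ppara, -1.066 for Nr1i3, -0.788 for Nr1h4, -0.426 for Hnf4a and 0.654 for Nr5a2. No receptor had an array that stood apart from the other 7 of its drug by Dixon's criterion.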

How the results depend on the processing

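Under the alternatives run, 873 of the values of single receptors kept their direction and their side of the threshold, 16 changed sign, 11 lost the call and 10 gained one. With Pravastatin, 10 of 10 receptors were called lower in every alternative other than slide 4 by itself, where 8 were, and every probe by itself, where 9 had all probes called lower. SQ1 minus Pravastatin gave 10 in every alternative other than median centring (9) and every probe by itself (9). The exception on probes is Nr3c1. All 16 changes of sign concern SQ1 values that were not called. They are Hnf4a with median centring (0.06) and within slide 2 (0.159), Nr0b2 within slide 2 (0.016), Ppara with the scan day as a block (-0.075) and within slide 1 (-0.275), Nr1i3 likewise (-0.086 and -0.214), and Nr1h4 likewise (-0.157 and -0.223), with a range of -0.003 to 0.163 when 1 SQ1 array was left out (below 0 without replicate 8). Nr1h3 was -0.013 with the scan day, -0.092 within slide 1, and -0.011 to 0.036 when 1 SQ1 array was left out (below 0 without replicate 3, 4, 7 or 8).

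With SQ1, 4860 genes were called, and 2071 with median centring (71.1% of them higher, against 48.7%), 2543 with the slide as a random block, 2239 with the scan day as a block, 3121 at an adjusted p of 0.01 and 7496 probes tested singly. Of the receptors, SQ1 called 3, but 1 with the slide as a block (Rxra). With the scan day as a block limma called 0 (2 at an unadjusted p under 0.05). SQ1 called 4 within slide 1 (1 higher and 3 lower), 7 within slide 2 (6 higher and 1 lower) and 1 when every probe had to be called. Pravastatin called 16476 probes and SQ1 minus Pravastatin 12582, or 3697 genes with median centring. Leaving out 1 array gave 4051 to 5104 genes with SQ1, 9612 to 10045 with Pravastatin and 7480 to 8273 for their difference, and 3 to 4, 10 and 10 receptors. The share of called genes that were higher moved with the Agilent processed signals to 56.8% for Pravastatin (46.3% in the limma fit reported) and to 44.7% for SQ1 minus Pravastatin (55.1%).

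The replicate number as a random block (correlation 0.47) called 4725, 9869 and 9620 genes, and as a fixed block 9412 for SQ1 minus Pravastatin. The replicate block changed no call among the receptors. The random blocks had correlations of 0.27 for the slide and 0.227 for the scan day. All 8 SQ1 arrays and the Pravastatin arrays of slide 4 were scanned on day 1, and the Pravastatin arrays of slide 3 on day 2. No SQ1 array thus differed from another SQ1 array in scan day. The scan day block could shift the SQ1 estimates only through the Pravastatin arrays in the same fit. Why the SQ1 calls move with the slide was not tested. The size of the Nr1i3 fall with Pravastatin moved with the background correction (-1.93 as reported and -3.389 with the Agilent processed signals), although its probes were well above background in 8 of 8 Pravastatin-treated channels.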
